A study of Mus musculus with 9 samples.

Results

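The 7 genes described here encode the clock output transcription factors of the D-box system and their regulators: Dbp, Tef, Hlf, Nfil3, Bhlhe40, Bhlhe41 and Rora. They were taken by symbol from a table of 13539 genes measured by RNA sequencing of mouse heart tissue, and all 7 were in it. The study asked about the heart without OMA1, an inner-membrane protease of mitochondria that responds to stress. All animals were 12-week-old males on the C57BL/6JOlaHsd background, and the table holds 9 libraries in 3 groups of 3. The first group was wild type for Oma1 and received isoproterenol, an agonist of β-adrenergic receptors, at 10 mg/kg/day from an implanted minipump over 7 days. The second was OMA1 KO and non-treated, and the third was OMA1 KO and received isoproterenol by the same pump, dose and duration. The labels do not say how the knockout allele was made, and they give the untreated animals no pump, so drug and pump cannot be told apart. Wild-type hearts without treatment were not analysed here, so whether the drug acts differently in the 2 genotypes was not tested.

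The circadian clock of heart cells runs on the activators CLOCK and ARNTL (BMAL1), which bind E-box sequences and drive their own repressors of the PER, CRY and NR1D families. DBP, TEF and HLF are PAR bZIP activators that carry this rhythm to target genes through D-box sequences, and NFIL3 (E4BP4) is a bZIP repressor that competes for the same D-boxes. BHLHE40 and BHLHE41 (DEC1 and DEC2) are repressors that bind E-boxes, and RORA is an orphan nuclear receptor that activates from the response element at which NR1D1 and NR1D2 repress. The labels give no hour of tissue collection for any heart, so a difference in hour between groups and a difference due to treatment cannot be told apart.

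Levels below are the deposited normalized expected counts, and a log2 difference is on the log2(value + 1) scale, which understates the change of low genes. Gene positions are those of GENCODE M21 on GRCm38. Tests are from limma over 8543 genes, with p-values adjusted over all of them and a threshold of 0.05. Nothing in the labels says that libraries of a group came from separate animals, so p-values measure only the spread between these samples. Libraries held 6.93e+06 to 1.22e+07 reads. The fewest reads behind any value of the 7 genes were 49, for Dbp, where the exact 95% Poisson interval is 36.3 to 64.8 reads and covers counting error only. Oma1 was at 17.7 to 22 in the 3 wild-type libraries and at 5.73 to 9.10 in the 6 knockout libraries, as their labels say. Treated knockout replicate 2 and treated wild-type replicate 3 stood apart from the other libraries of their groups, with a chi-square per degree of freedom between replicates of 8.12 to 10.9 against 2.25 to 3.66 in the other pairs.

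Markers of other cell types also differed between the groups. All 4 atrial myocyte markers read for this check (Myl4, Myl7, Sln and Nppa) were in the table, and their summed level was 1111 to 2484 in untreated knockout hearts, 87.8 to 119 in the treated knockout group and 53.5 to 844 in treated wild-type hearts, where Nppa in replicate 3 made up 842. Sln was at 0 in all 3 treated wild-type libraries and Myl7 was at 0.417 or less in every treated library. The 4 fat markers summed to 26.7 to 61.8 in untreated hearts and to 17.5 to 21.2 in the 6 treated ones, and the fat cell hormone Adipoq was at 3.32 to 17.0 against 0.104 or less. The 5 endothelial markers ran the other way, at 647 to 705 in untreated knockout hearts, 930 to 1009 in the treated wild-type group and 1114 to 1346 in treated knockout hearts. The 5 fibroblast markers summed to 588 to 615 in untreated knockout, 717 to 1137 in treated wild-type and 786 to 807 in treated knockout hearts. Among them, Col1a1 was at 458 in treated wild-type replicate 3, against 158 and 165 in the other libraries of that group. In the same order of groups, the 5 markers of smooth muscle and pericytes summed to 595 to 629, 978 to 1133 and 958 to 1127. The 6 cardiomyocyte markers were high in every library, with a sum of 33110 to 36720 in untreated knockout, 31330 to 33450 in treated knockout and 26480 to 31960 in treated wild-type hearts. The part of these differences in the results below was not tested. In RNA from whole tissue, fewer cells of a type, less RNA per cell and a difference in the tissue taken cannot be told apart.

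Promoter windows of 300 bases, from 250 before to 50 after the start, were found in RefSeq (GRCm38.p6) for 6 of the 7 genes, all but Bhlhe40, with a pair of windows for Tef. Both strands were searched for the E-box CACGTG, the D-box letters TTATGTAA, TTACGTAA and TTATGCAA, the ROR and NR1D element TAGGTCA, and the cyclic AMP response element TGACGTCA; none of these letters contains another. The E-box occurs in 7.15% of all 32851 RefSeq windows, the D-box in 1.78%, TAGGTCA in 2.61% and TGACGTCA in 1.79%. The sequences below are 30 bases around each match in a window of the 7 genes, 5′ to 3′ on the gene's strand with the match in capitals, and they show which of the clock's known elements lie in these windows.
Tef, upstream start (chr15:81802534-81802563, plus strand, E-box 127 bases before the start, inside an annotated exon): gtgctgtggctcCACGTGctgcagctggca
Tef, downstream start (chr15:81811264-81811293, plus strand, E-box 138 bases before the start): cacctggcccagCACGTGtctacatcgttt
Bhlhe41 (chr6:145865556-145865585, minus strand, E-box 153 bases before the start): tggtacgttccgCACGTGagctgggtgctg
Nfil3 (chr13:52981040-52981069, minus strand, TAGGTCA read on the other strand, 12 bases before the start, inside an annotated exon): tagcgcggcgctcggaacTGACCTActaac
Hlf (chr11:90390918-90390947, minus strand, cyclic AMP response element 9 bases before the start): atcggcgcgcggtgcgggcccTGACGTCAc
Tef and Bhlhe41 are thus the 2 of 6 genes with an E-box in a window, and 0 of 6 held a D-box. The windows of Dbp and Rora held none of the searched letters. A match is a description of the sequence and not evidence of binding, and the absence of one says nothing of the factor.

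The PAR bZIP activators stood highest in untreated knockout hearts and were lower in treated hearts of either genotype. Dbp (ENSMUSG00000059824, chr7:45705088-45710203, plus strand) was at 30.4, 25.6 and 16.6 in the 3 untreated knockout libraries, at 9.12, 5.11 and 8.76 in treated knockout libraries and at 6.33, 5.65 and 7.88 in treated wild-type libraries. All 3 untreated libraries were above all 6 treated ones, and the treated groups overlapped. The mean of treated knockout hearts was 3.16-fold below that of untreated ones (log2 difference -1.54 ± 0.22 SE, adjusted p = 8.8e-05 by limma). Treated wild-type hearts were 3.66-fold below untreated knockout hearts (-1.70 ± 0.22, adjusted p = 9.8e-05), and the treated groups differed by 0.16 ± 0.22 (adjusted p = 0.617). Dbp passed the filter on low values, at least 10 in at least 3 libraries, only through the untreated knockout libraries, so its place among the tested genes already required a high level there. The untreated libraries also spread most for this gene, with a mean of 24.2 ± 7.03 (SD, n = 3). Dbp shares 539 of its 2993 exon bases with Sphk2 on the opposite strand, and the strand setting of the counting is not given in the sources used here. Sphk2, a sphingosine kinase gene, was at 19.2 ± 1.31 in untreated knockout, 16.3 ± 0.647 in treated knockout and 16 ± 1.27 in treated wild-type hearts (SD, n = 3), and none of its differences passed the threshold (adjusted p from 0.0535 to 0.87).

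Tef (ENSMUSG00000022389, chr15:81802421-81826863, plus strand), whose windows carry the E-boxes above, was at 90.5, 94.6 and 78.8 in untreated knockout hearts, 49.0, 39.0 and 47.5 in the treated knockout group and 52.7, 49.6 and 52.5 in treated wild-type hearts. The untreated group lay above every treated library with a wide gap, and each treated knockout library was also below each treated wild-type one by a small margin. Treated knockout hearts were 1.95-fold below untreated ones (-0.95 ± 0.095, adjusted p = 5.8e-06), and treated wild-type hearts 1.70-fold below them (-0.75 ± 0.095, adjusted p = 7.4e-05). Between the treated groups the difference of -0.19 ± 0.095 did not pass the test (adjusted p = 0.139).

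Hlf (ENSMUSG00000003949, chr11:90336536-90390895, minus strand) was at 19.6, 18.2 and 17.8 in untreated knockout hearts, 8.19, 7.09 and 9.33 in the treated knockout group and 10.8, 9.92 and 6.15 in treated wild-type hearts. The untreated libraries were close to each other and all above the treated ones, among which treated wild-type replicate 3 was lowest. Hlf too passed the filter only with the untreated libraries, since 1 of the 6 treated ones (10.8) reached the minimum. The mean was 2.26-fold lower in treated than in untreated knockout hearts (-1.09 ± 0.17, adjusted p = 0.000146) and 2.07-fold lower in treated wild-type hearts (-1.0 ± 0.17, adjusted p = 0.00061). The treated groups overlapped and differed by -0.089 ± 0.17 (adjusted p = 0.72). Treated knockout replicate 2 was the lowest of its group for all 3 activators. Without it, Dbp, Tef and Hlf remained lower in treated than in untreated knockout hearts, with differences of -1.30, -0.85 and -1.0.

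**Figure D1:**
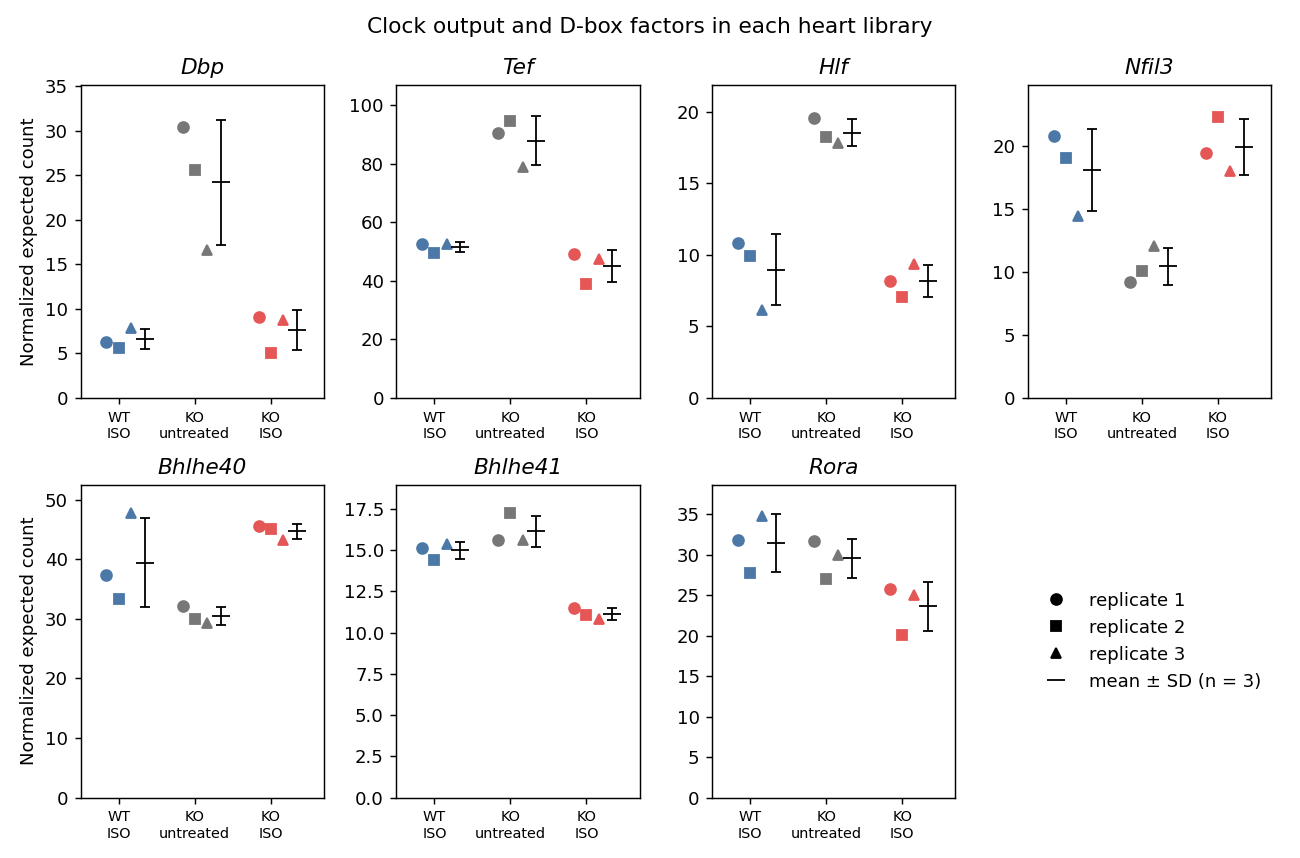
Normalized expected count of each of the 7 genes (vertical axes, each from 0) in every library of the 3 groups (horizontal axis), with marker shapes for replicate numbers and bars for mean ± SD of n = 3. Dbp, Tef and Hlf stand above all treated libraries in the untreated knockout group, Nfil3 and Bhlhe40 below them, and Bhlhe41 and Rora are lowest in treated knockout hearts.

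The repressor of the D-box system had the opposite pattern. Nfil3 (ENSMUSG00000056749, chr13:52967209-52981073, minus strand) was at 9.18, 10.1 and 12.0 in untreated knockout hearts, 19.4, 22.3 and 18.0 in the treated knockout group and 20.7, 19.0 and 14.4 in treated wild-type hearts. All treated libraries were above all untreated ones, and the treated groups overlapped. Nfil3 passed the filter on low values only with treated libraries, where it is high, since the untreated library at 9.18 was below the minimum. Nfil3 was 1.91-fold higher in treated than in untreated knockout hearts (0.87 ± 0.14, adjusted p = 0.000168) and 1.73-fold higher in treated wild-type hearts (0.73 ± 0.14, adjusted p = 0.00133). The treated groups differed by 0.14 ± 0.14 (adjusted p = 0.456). Without treated knockout replicate 2, which was the highest of its group here, the difference from untreated hearts was 0.79 (adjusted p = 0.00112).

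Since activators and repressor compete for one element, their balance was also described per library, as the sum of Dbp, Tef and Hlf over Nfil3 with each level divided by the length of the gene's longest transcript in kilobases. The ratio was 8.96, 7.76 and 5.07 in untreated knockout hearts, 1.84, 1.171 and 1.94 in the treated knockout group and 1.70, 1.71 and 2.43 in treated wild-type hearts. Untreated knockout libraries thus had the 3 highest ratios, and the treated groups overlapped. The ratio combines genes already tested one by one and was given no test. Dbp made up 35.6 ± 5.42% of the summed activator level per kilobase in untreated knockout hearts, 25.9 ± 3.72% in the treated knockout group and 21.3 ± 3.09% in treated wild-type hearts (SD, n = 3), and Tef made up most of the rest in each group.

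The 2 E-box repressors did not share a pattern. Bhlhe40 (ENSMUSG00000030103, chr6:108660629-108666925, plus strand) was at 32.1, 30.01 and 29.3 in untreated knockout hearts, 45.6, 45.1 and 43.2 in the treated knockout group and 37.3, 33.3 and 47.7 in treated wild-type hearts. Every treated library was above every untreated one, and treated wild-type replicate 3 was the highest of all 9. Bhlhe40 was 1.47-fold higher in treated than in untreated knockout hearts (0.54 ± 0.11, adjusted p = 0.000978). Treated wild-type hearts were 1.29-fold above untreated knockout hearts (0.35 ± 0.11, adjusted p = 0.0232), but with treated wild-type replicate 3 left out this call was lost (0.21, adjusted p = 0.0914). The treated groups differed by 0.19 ± 0.11 (adjusted p = 0.196) with all libraries and by 0.33 (adjusted p = 0.0124) without that replicate.

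Bhlhe41 (ENSMUSG00000030256, chr6:145858243-145865558, minus strand), its paralog, whose window holds the E-box shown above, was at 15.6, 17.2 and 15.6 in untreated knockout hearts, 11.5, 11.0 and 10.8 in the treated knockout group and 15.1, 14.4 and 15.4 in treated wild-type hearts. The treated knockout libraries were the lowest 3 and lay close together, while treated wild-type and untreated knockout libraries nearly met. It was 1.35-fold lower in treated knockout than in treated wild-type hearts (-0.40 ± 0.093, adjusted p = 0.00785) and 1.45-fold lower than in untreated knockout hearts (-0.50 ± 0.093, adjusted p = 0.000598). Treated wild-type and untreated knockout hearts differed by -0.10 ± 0.093 (adjusted p = 0.435). In GENCODE, 1280 of the 6720 exon bases of Bhlhe41 overlap Gm43909 on the opposite strand, a model with no value here. The ratio of Bhlhe40 to Bhlhe41 per kilobase was 7.81, 8.05 and 7.90 in treated knockout hearts, 4.86, 4.56 and 6.11 in treated wild-type hearts and 4.06, 3.43 and 3.70 in untreated knockout hearts. The 3 groups did not overlap in this ratio, which was not tested.

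Rora (ENSMUSG00000032238, chr9:68653786-69388246, plus strand) was at 31.6, 26.9 and 29.98 in untreated knockout hearts, 25.7, 20.1 and 25 in the treated knockout group and 31.8, 27.7 and 34.8 in treated wild-type hearts. All 3 treated knockout libraries were below all others, by a small margin, and replicate 2 was the lowest of them. Rora was 1.33-fold lower in treated knockout than in treated wild-type hearts (-0.40 ± 0.11, adjusted p = 0.0165) and 1.25-fold lower than in untreated knockout hearts (-0.32 ± 0.11, adjusted p = 0.0264). Both calls rested on treated knockout replicate 2, without which the differences were -0.29 (adjusted p = 0.071) and -0.21 (adjusted p = 0.12). Treated wild-type and untreated knockout hearts overlapped and differed by 0.085 ± 0.11 (adjusted p = 0.583).

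**Figure D2:**
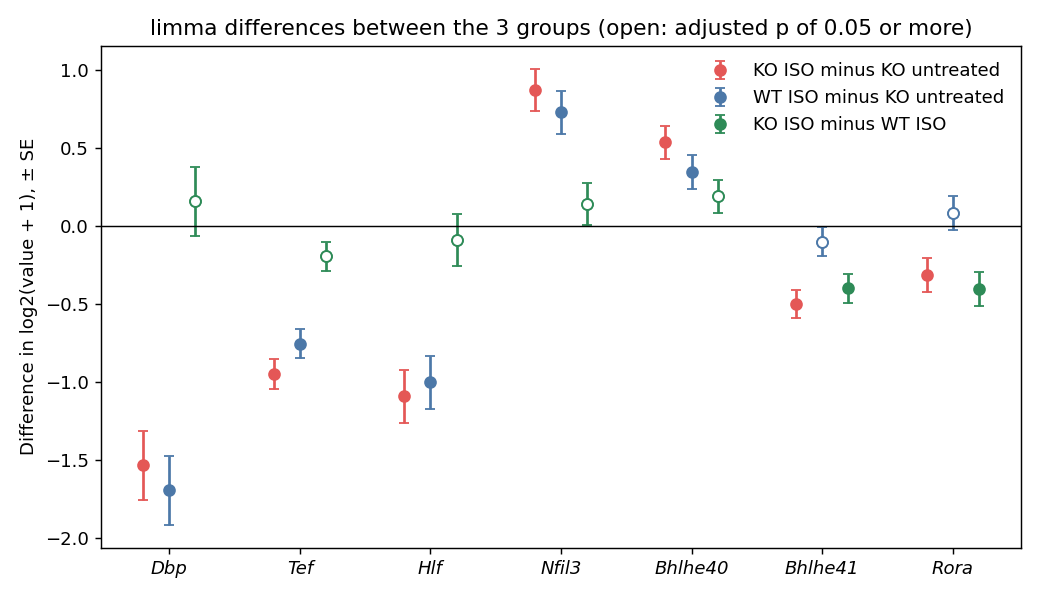
Log2(value + 1) differences of the 7 genes (horizontal axis) in the 3 comparisons, with SE from limma; filled points passed an adjusted p of 0.05 and open points did not. Dbp is lowest at -1.70 and -1.54 against untreated knockout hearts, and in the comparison of the treated groups only Bhlhe41 and Rora, both at -0.40, are filled.

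Counted together, all 7 genes passed the threshold between treated and untreated knockout hearts, 2 higher (Nfil3 and Bhlhe40) and 5 lower. In that comparison 51.4% of all tested genes passed, so a call is common there; 23.9% of genes were higher and 27.4% lower, or 2043 and 2345 genes, which became 2834 and 1669 when libraries were scaled without the transcripts of the mitochondrial genome. The 7 genes kept their directions under that scaling, and Rora lost its call. Dbp and Hlf, 2 of the 5 lower genes, entered the test through the untreated group, where they are high. Nfil3, among the 2 higher genes, entered it only with treated libraries, where it is high. The count is therefore a description. Dbp, Hlf and Nfil3 were also called with no filter on low values. The median difference of the 7 genes was -0.50 against -0.021 over all genes tested. In treated wild-type against untreated knockout hearts, which differ in genotype as well as treatment, 5 of the 7 passed (background 33.2%). Dbp, Tef and Hlf were lower, as were 16.9% of all tested genes, and Nfil3 and Bhlhe40 were higher, as were 16.4%. Here too Dbp and Hlf were tested only through the untreated group, and Nfil3 only with treated libraries. Both comparisons use the same 3 untreated libraries, so their likeness is not independent evidence. Dbp fell below the filter without any one of the untreated libraries. In treated wild-type against untreated knockout hearts the count was then 4 without untreated knockout replicate 1. It was 3 without replicate 2 or 3, where Bhlhe40 also lost its call. When the genes kept over all 9 libraries were tested, an alternative chosen after seeing the data, Dbp was lower without any one of the untreated libraries (-1.93 to -1.51).

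Between the treated groups, where genotype is the labelled difference, 2 of the 7 genes passed (background 27.8%), Bhlhe41 and Rora, both lower in the knockout as were 15.9% of all tested genes, against 12% that were higher. The median difference was -0.089 against -0.014 over all genes. The 4 D-box factors were not among them, with differences between -0.19 and 0.16. Bhlhe41 and Rora have the longest transcripts of the 7, at 6133 and 10878 bases, and fold changes between these groups moved when each library was corrected for transcript length and GC content. After that correction the Bhlhe41 difference was -0.27 (adjusted p = 0.0485) and that of Rora was -0.19 (adjusted p = 0.157), so 1 of the 7 genes passed. The endothelial sums given above did not overlap between these groups either, and 4 of the 5 endothelial and 2 of the 6 cardiomyocyte markers were called higher in the treated knockout; their part in the Bhlhe41 and Rora differences was not tested. Without treated knockout replicate 2 the count was also 1, with Bhlhe41 at -0.40 (adjusted p = 0.0232).

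**Figure D3:**
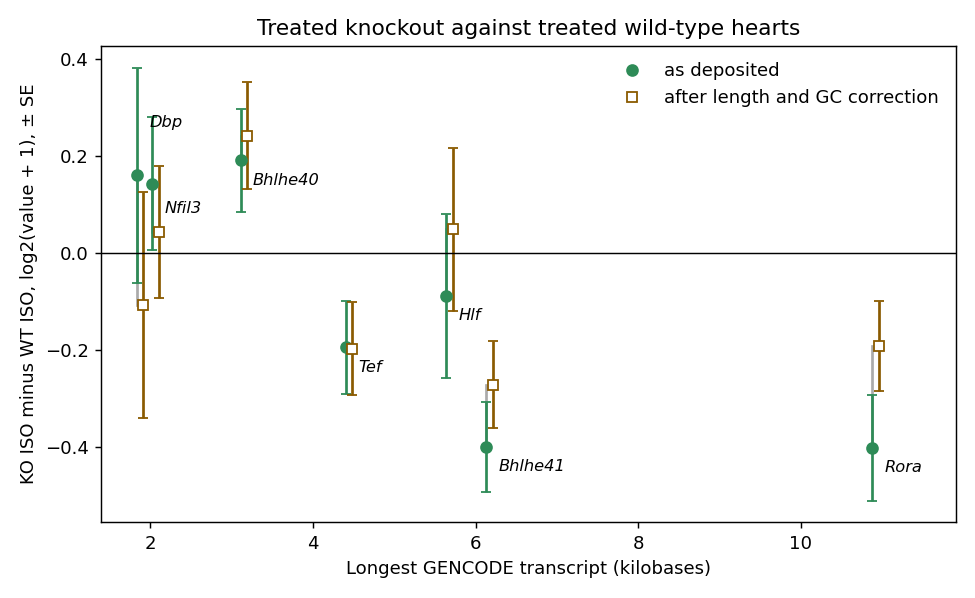
Difference between treated knockout and treated wild-type hearts in log2(value + 1), with SE (vertical axis), against the length of the longest GENCODE transcript in kilobases (horizontal axis), as deposited (filled circles) and after a correction for length and GC content (open squares). Rora moves from -0.40 to -0.19 and Bhlhe41 from -0.40 to -0.27, while Tef stays at -0.19 and -0.20.

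Among themselves the 7 genes changed order between groups. Per kilobase of transcript, the level in untreated knockout hearts fell from Tef (19.97 ± 1.86) over Dbp (13.2 ± 3.83), Bhlhe40 (9.79 ± 0.474), Nfil3 (5.15 ± 0.716) and Hlf (3.28 ± 0.163) to Rora (2.71 ± 0.22) and Bhlhe41 (2.63 ± 0.153). Neighbours in this order lay apart by more than their SDs except Dbp and Bhlhe40, and Rora and Bhlhe41. In treated knockout hearts Bhlhe40 led at 14.3 ± 0.401, followed by Tef (10.3 ± 1.23), Nfil3 (9.82 ± 1.083), Dbp (4.17 ± 1.21), Rora (2.17 ± 0.279), Bhlhe41 (1.81 ± 0.0589) and Hlf (1.45 ± 0.199), with Tef and Nfil3 closer than their SDs. Treated wild-type hearts had the same order, from Bhlhe40 at 12.7 ± 2.38 and Tef at 11.7 ± 0.398 to Hlf at 1.59 ± 0.439 (SD, n = 3), and there Bhlhe40 and Tef, and Dbp and Rora, lay within their SDs. Dbp thus stood next to Tef per kilobase in untreated hearts and behind Bhlhe40, Tef and Nfil3 in both treated groups.

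The core clock genes upstream of these factors were read from a list of 18, of which 16 were in the table and 14 were tested. Between treated and untreated knockout hearts 3 were higher (Arntl, Per1 and Timeless) and 6 lower (among them Clock, Cry2, Nr1d1, Nr1d2 and Per3), with a median difference of -0.16 against -0.021 over all genes tested. Of all genes tested 23.9% were higher and 27.4% lower there. The calls of Clock, Cry2 and Per3 were lost in 12, 10 and 10 of 27 alternatives. These are the 24 planned settings and 3 repeats chosen after seeing the data. The repeats left out each untreated library again, with the genes kept over all libraries, so they are not independent of the planned settings. In the scaling without the mitochondrial genome, 3 core clock genes were lower and 4 higher. Arntl, the E-box activator, was at 17.8, 18.1 and 17.8 in untreated knockout hearts, 28.3, 33.7 and 28.2 in the treated knockout group and 30.1, 33.4 and 30.5 in treated wild-type hearts. It was 1.68-fold higher in treated than in untreated knockout hearts (0.71 ± 0.087, adjusted p = 2.5e-05). Nr1d1, which represses Arntl and Nfil3 in the known circuit, was at 101, 110 and 96.2 in untreated knockout hearts, 51.4, 33.0 and 47.4 in the treated knockout group and 47.7, 44.5 and 46.6 in treated wild-type hearts. It was 2.33-fold lower in treated than in untreated knockout hearts (-1.22 ± 0.13, adjusted p = 6.9e-06). Arntl and Nfil3 were thus low and Nr1d1, Dbp, Tef and Hlf high in the same 3 untreated libraries.

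Nr1d2, the paralog of Nr1d1, was lower by a log2 difference of -0.77 in treated knockout hearts (adjusted p = 0.00029). Per3, a period gene, was at 10.5 to 13.2 in untreated knockout, 8.19 to 10.1 in treated knockout and 5.88 to 8.90 in treated wild-type hearts, with differences from untreated hearts of -0.40 (adjusted p = 0.0473) and -0.59 (adjusted p = 0.0111). The first of these calls was lost without any one of untreated knockout replicates 1 and 2 and treated knockout replicates 2 and 3, and the second without untreated knockout replicate 1. Like Hlf, Per3 passed the filter on low values only with the untreated libraries, where it is high. Timeless, which was called higher, passed it only with treated libraries, where it is high. The counts of core clock genes called against untreated hearts include Per3 and Timeless and are a description. Per2 was at 1.38 to 4.90 in the 9 libraries and Npas2 at 6.63 to 10.9, below the minimum for testing, and the expression of Rorb and Ciart was not analysed here.

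Between the treated groups 2 core clock genes were higher in the knockout (Per1 and Timeless) and 1 was lower (Clock), or 3 of 14 where 27.8% of all genes passed, with a median of -0.087 against -0.014 over all genes. Timeless lost this call without treated knockout replicate 2. Per1, a period gene that cyclic AMP signalling can induce, was at 19.1, 18.8 and 19.5 in treated knockout hearts, 14.0, 10.4 and 13.9 in treated wild-type hearts and 12.7, 10.8 and 13.3 in untreated knockout hearts. It was higher in treated knockout than in treated wild-type hearts by 0.56 ± 0.12 (adjusted p = 0.00572). Clock was at 45.6, 42.6 and 46.0 in treated knockout against 64.1, 55.8 and 54.1 in treated wild-type hearts (-0.36 ± 0.078, adjusted p = 0.00544), and after the correction for length and GC content it was no longer called. In treated wild-type against untreated knockout hearts 3 core clock genes were higher (Arntl, Csnk1d and Timeless) and 4 lower (among them Nr1d1, Nr1d2 and Per3), or 7 of 14 against 33.2% of all genes, and Csnk1d lost its call in 7 of 27 alternatives.

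**Figure D4:**
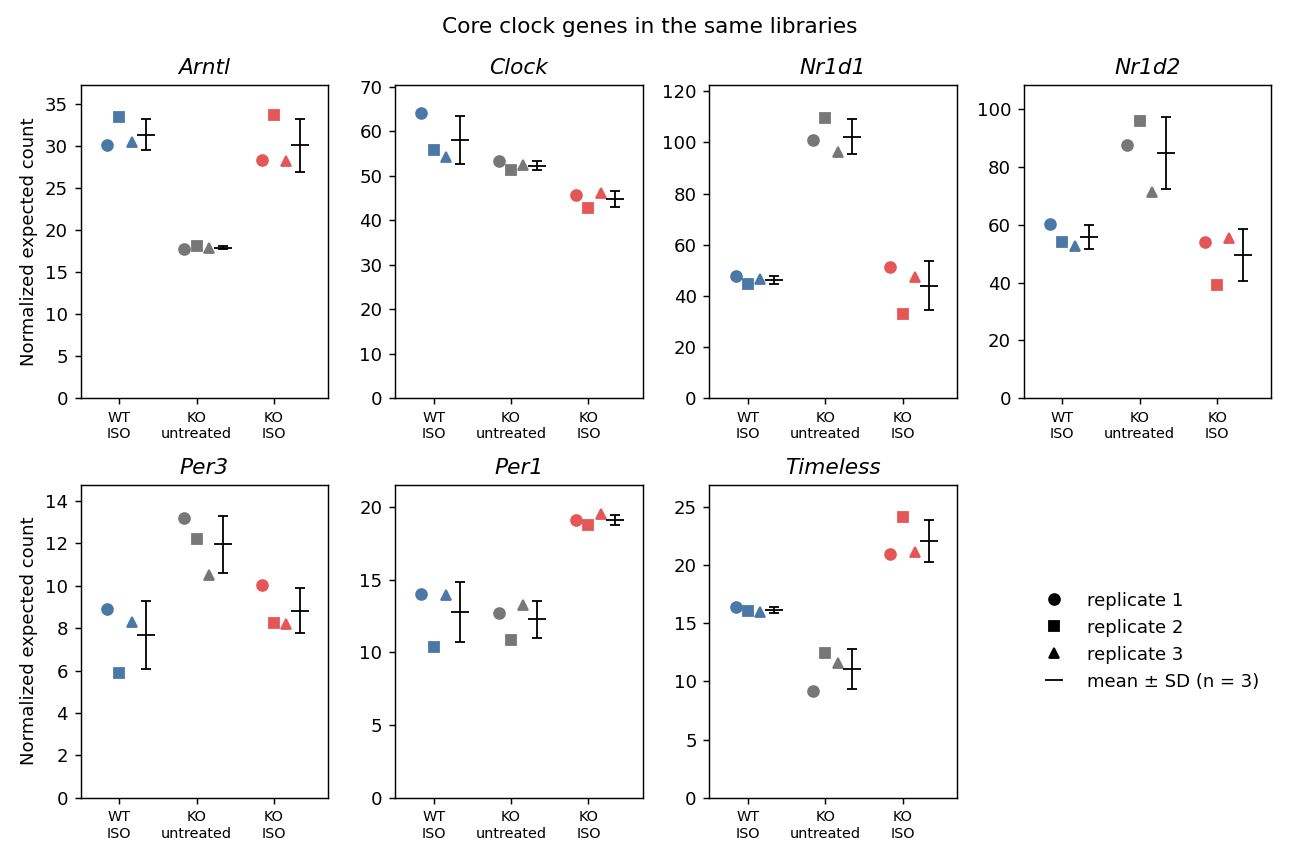
Normalized expected count (vertical axes from 0) of 7 core clock genes in every library, with marker shapes for replicate numbers and bars for mean ± SD of n = 3. Arntl is near 18 in untreated knockout hearts and 28 to 34 in treated ones, Nr1d1 runs the other way, and Per1 and Timeless are highest in treated knockout hearts.

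D-box letters were found in 3 of the 21 RefSeq windows of 13 core clock genes, against 1.78% of all windows. They are shown because the D-box is the element at which DBP, TEF, HLF and NFIL3 act.
Per3 (chr4:151044852-151044881, minus strand, 205 bases before the start): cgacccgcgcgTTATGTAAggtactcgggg
Per3 (chr4:151044805-151044834, minus strand, 158 bases before the start): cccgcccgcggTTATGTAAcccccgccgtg
Per1 (chr11:69098914-69098943, plus strand, 24 bases before the start): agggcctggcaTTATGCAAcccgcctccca
Timeless (chr10:128237898-128237927, plus strand, 157 bases before the start): aagtagaccagTTATGTAAgtaaaacttga
These genes did not move as one. Per3 was highest in untreated knockout hearts, as were Dbp, Tef and Hlf, whereas Per1 and Timeless were highest in treated knockout hearts. Timeless, better known for its part in replication forks, was at 9.18 to 12.4 in untreated knockout, 20.9 to 24.2 in treated knockout and 15.9 to 16.4 in treated wild-type hearts.

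Genes downstream were read from a list of 21 genes known as rhythmic in heart or in many tissues, or as targets of the PAR bZIP factors; 20 were in the table and 19 were tested. Between treated and untreated knockout hearts 12 were lower and 2 higher, or 14 of 19 against 51.4% of all genes, with a median difference of -0.54 against -0.021 over all genes tested. This list and the core clock list were chosen with earlier results of these data known, so their counts and medians are a description. Per1 is in both lists. Klf9, a zinc finger factor induced by glucocorticoids, was at 67.4, 70.2 and 63.3 in untreated knockout, 29.8, 27.6 and 34.2 in treated knockout and 46.3, 35.6 and 35.6 in treated wild-type hearts (-1.11 ± 0.11 between the knockout groups, adjusted p = 4.5e-06). Kcnip2, the potassium channel subunit KChIP2 and a rhythmic gene of the ventricle, fell from 168 ± 5.04 to 88.0 ± 12.3 (SD, n = 3; -0.94, adjusted p = 1.3e-05). Dgat2, which makes triglycerides, fell from 302 ± 15.5 to 149 ± 23.8 (-1.02, adjusted p = 2.9e-05). Cdkn1a, the cell cycle inhibitor p21 and a gene repressed by NR1D1 in the liver clock, rose from 14.2 ± 3.77 to 37.4 ± 7.21 (1.35, adjusted p = 1.7e-05).

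In treated wild-type against untreated knockout hearts 10 of these genes were lower and 1, Cdkn1a, was higher (median -0.39), or 11 of 19 against 33.2% of all genes. Ucp3, a mitochondrial carrier gene, was at 68.9 to 88.0 in untreated knockout and 21.1 to 36.0 in treated wild-type hearts (-1.36, adjusted p = 6.2e-05). Between the treated groups 2 were higher in the knockout (Klf10 and Per1) and 3 lower (Alas1, Klf9 and Nampt), with a median of -0.047. These 5 of 19 are a share near the 27.8% of all genes called. Alas1, which starts heme synthesis and is a known PAR bZIP target in liver, was at 135 to 146 in treated knockout against 161 to 194 in treated wild-type hearts (-0.34, adjusted p = 0.00654). That count of 5 was 2 with treated knockout replicate 2 or treated wild-type replicate 1 left out, and 3 with the first treated knockout or the second treated wild-type library left out. It was also 2 when only the 2 groups compared were fitted and 7 without treated wild-type replicate 3; Nampt kept its call in 11 of 27 alternatives. Por, another PAR bZIP target, did not differ beyond the threshold between the treated groups (0.077, adjusted p = 0.52).

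**Figure D5:**
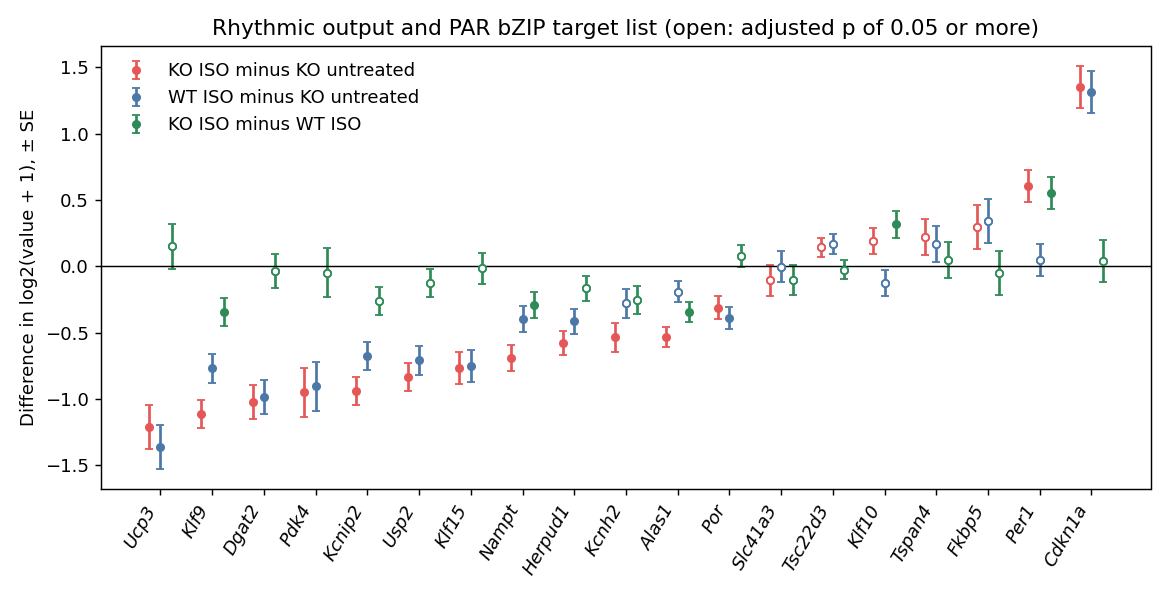
Log2(value + 1) differences with SE for the 19 tested genes of the rhythmic output list (horizontal axis) in the 3 comparisons; filled points passed an adjusted p of 0.05. Most points of both comparisons with untreated knockout hearts lie below 0. Cdkn1a (near 1.3 in both) and Per1 (0.60 between the knockout groups) are called above it. The points of treated knockout against treated wild-type hearts have a median of -0.047. Per1 (0.56) and Klf10 are called above 0 there, and Alas1, Klf9 and Nampt below it.

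For each of the 7 genes the 3 tested genes with the most similar profile over the 9 libraries were named by the root mean square distance between centred log2(value + 1) values; the libraries share their groups and depth, and a distance carries no test. Dbp was nearest to Myom2 (0.268), Acot1 (0.305) and Nr1d1 (0.312). Tef was nearest to Synj2 (0.0773), D2hgdh (0.0854) and Akap1 (0.089), and Hlf to Dgat2 (0.0999), Hadh (0.103) and Ces1d (0.112). For Nfil3 they included Papln (0.0983) and Shroom4 (0.132), and for Bhlhe40 Adarb1 (0.0606), Ifrd1 (0.0731) and Prkcd (0.0745). Bhlhe41 was nearest to Daam1 (0.051), Usp24 (0.0572) and Vps33a (0.0626), and Rora to Mid2 (0.0608), Fam168a (0.0674) and Pkp2 (0.0707). None of the 7 was among another's nearest 3. The closest pair among them was Bhlhe41 and Rora (0.16), followed by Tef and Hlf (0.23), and the farthest was Dbp and Nfil3 (1.22). Many other tested genes lay nearer than the partners in the closest pairs. With predicted gene models left out, Rora ranked 1224 from Bhlhe41 and Bhlhe41 784 from Rora. Hlf ranked 440 from Tef, and Tef 87 from Hlf.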

How the data were processed

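RNA from heart tissue of 9 samples was extracted with TRIzol and column purification and made into TruSeq libraries, per the labels' protocols. The authors named cutadapt, RSEM 1.17, limma and the build GRCm38, per the submitters' processing notes; the aligner, the strand setting and the other settings were not given in those sources. What was deposited is a signal, the normalized expected counts per gene (9.46e+05 to 1.02e+06 per library). The low values were whole reads times 1 step per library (100% within 0.02 reads), which gave the reads behind each value.

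The 8543 of 13539 genes with at least 10 in at least 3 of the 9 libraries were tested on log2(value + 1) with limma 3.58.1 (R 4.3.3), with 1 mean per group, no covariate, 1 spread across the groups and a trend of variance with mean; p-values are two-sided with Benjamini-Hochberg adjustment over all tested genes and a threshold of 0.05. Fold values are ratios of group means. The procedure was tested on simulated data. Transcript lengths and exons came from GENCODE M21 and promoter windows from RefSeq (GRCm38.p6). Alternatives covered the pseudocount, the filter, 4 scalings, the form of the fit, each library left out, a replicate block, a length and GC correction with splines of 5 degrees of freedom (8494 genes), and tests of the recovered reads by edgeR 4.0.16, limma voom and DESeq2 1.42.0.

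The rule for named genes took all 7 members, Oma1, 6 core clock genes whatever their p, up to 4 genes of the output list with the smallest p per comparison, and the 3 nearest profiles. Clock, Timeless, Cry2, Csnk1d, Npas2, Nampt, Por and Sphk2 were named beyond it, after their values were seen. Some results for single genes are left out here. The members and lists were chosen with earlier results of these data known.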

Additional observations from a re-analysis of the deposited data

How the results depend on the processing

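Over 24 planned settings, Dbp, Tef, Hlf, Nfil3 and Bhlhe40 kept their calls between treated and untreated knockout hearts wherever they were tested, as Bhlhe41 did there and against treated wild-type hearts. The count of 7 genes called was 5 to 7 with 1 library left out in turn, the count of 2 between the treated groups was 1 to 3, and the count of 5 in treated wild-type against untreated knockout libraries was 3 to 5. Between the treated groups the count was 1 after the length and GC correction and 1 without treated knockout replicate 2, where all genes called fell to 1336 from 2379 (1336 to 2382 with 1 library left out in turn). In the remaining comparison it was 3 without untreated knockout replicate 2 or 3. Rora lost its call against untreated knockout hearts in scaling by the total without the mitochondrial genome (-0.21, adjusted p = 0.127), by DESeq2 (-0.30, adjusted p = 0.0614), after the length and GC correction (-0.23, adjusted p = 0.0541) and without untreated knockout replicate 1 or 3 or treated knockout replicate 2; the cause was not tested. Signs that turned were all of differences that were not called. Between the treated groups Dbp was at -0.11 and Hlf at 0.048 after the correction. With 1 library left out in turn, Hlf ran from -0.31 to 0.051 (0.0008 where treated knockout replicate 2 was left out) and Nfil3 from -0.0024 to 0.24. Rora in the third comparison was at -0.036 after the correction. Scaling by the total without the mitochondrial genome, whose share was 33.9% to 42.5%, moved the median of all genes between the knockout groups from -0.021 to 0.082 and the share of calls that were higher from 46.6% to 62.9% (2834 higher and 1669 lower). That share went from 43% to 56.6% between the treated groups and from 49.3% to 61.9% in the third comparison, and no called direction among the 7 genes turned. With the replicate number as a block, the counts of the 7 genes stayed at 7, 2 and 5, and those of all genes were 4316, 2258 and 2755. Deviations of libraries with the same number correlated at -0.14 to 0.183, so the numbers were not taken to pair samples. The depth limits Dbp and Hlf most, at 49 and 64 reads in their lowest libraries.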
